A study of Mus musculus with 4 samples.

Results

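The RNA of mouse ESC cultures was examined for 33 genes of fibroblasts and extracellular matrix, chosen by symbol as mesenchymal genes that report RNA of the feeder layer, with no measured value in the rule. They are 33 of the 55335 genes counted, and 32 of them were among the 18661 genes with enough counts to test. All cultures were AB2.2 mouse ESCs, a single line, kept on mouse embryonic fibroblast (MEF) feeders in serum medium (15% fetal bovine serum). The medium also held leukemia inhibitory factor at 1000 U/ml, the GSK3 inhibitor CHIR99021 at 3 μM and the MEK inhibitor PD0325901 at 1 μM. The control group held 2 libraries without added lactate and the lactate group 2 libraries of cells given 50 mM lactate for the last 24 h. Total RNA was harvested, and the sources used here do not say whether the feeders were removed first. If they were not, RNA of ESCs and of feeders stands in 1 library. A difference in feeder cell number and one in RNA per feeder cell could then not be told apart. Which cells gave the RNA of these genes was not tested.

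MEFs are added to ESC cultures because they give the cells a surface to attach to and secrete factors that hold them undifferentiated. A fibroblast is known by the matrix it builds: fibrillar collagens, wound from pro-alpha chains into triple helices and laid down as fibrils outside the cell, collagen VI microfibrils, fibronectin fibres, elastic microfibrils, and the enzymes that crosslink or cut them. Cultured fibroblasts also carry smooth muscle contractile proteins, the intermediate filament vimentin, surface proteins such as Thy1 and PDGF receptors, and the transcription factors Prrx1, Twist1 and Twist2. Several of these genes are not limited to fibroblasts. Fn1, Vim and Sparc are also transcribed by ESCs or by primitive endoderm, the early lineage that lines the blastocoel and makes basement membrane.

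Gene counts summed to between 18067562 and 19077885 per library, and the 33 genes took 0.443% and 0.520% of them in control and 0.547% and 0.526% in lactate. The libraries numbered 1 in either group held a larger mitochondrial share, at 5.48% in control and 5.72% in lactate, than those numbered 2, at 2.43% and 2.82%. The pluripotency genes Pou5f1, at 555 to 814 FPKM, and Nanog, at 409 to 531 FPKM, were high in all 4 libraries. FPKM scale reads by transcript length and by library size, so this is the scale on which genes of different length can be set side by side. The fibroblast markers were detected in every library as well. Col1a1, for instance, lay between 32.4 and 50.4 FPKM. The surface marker Fap was near 0 and was the gene not tested, with 3 and 7 reads in control and 4 and 10 in lactate.

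Levels within the list spanned a 1558-fold range of mean FPKM in control. Fn1, the gene of fibronectin, was the highest at 428 ± 6.12 FPKM (mean ± SD, n = 2), followed by Vim at 238 ± 56.3, Sparc at 169 ± 14.9 and Acta2 at 129 ± 14.6. These were the 4 genes over 100 FPKM, while 14 lay at 10 to 100, 13 at 1 to 10 and 2 at 1 or less. Fn1, Vim and Sparc together made up 57.6% of the summed FPKM of the list in control, and Fn1 alone took 44.9% to 60.9% of its reads. Below them came the smooth muscle gene Tagln (76.3), Thbs1 (66.1), Timp1 (48.1), Col1a1 (41.4), Lox (40.7) and Col1a2 (24.9 FPKM). Timp1 was above Col1a1 and Lox in all 4 libraries. The order of Col1a1 and Lox was not resolved. Col1a1, with an SD of 12.7 FPKM in control, was below Lox in the libraries numbered 1 and above it in those numbered 2. The lowest were Fap at 0.310 and the leucine-rich proteoglycan Lum at 0.275 FPKM.

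**Figure D1:**
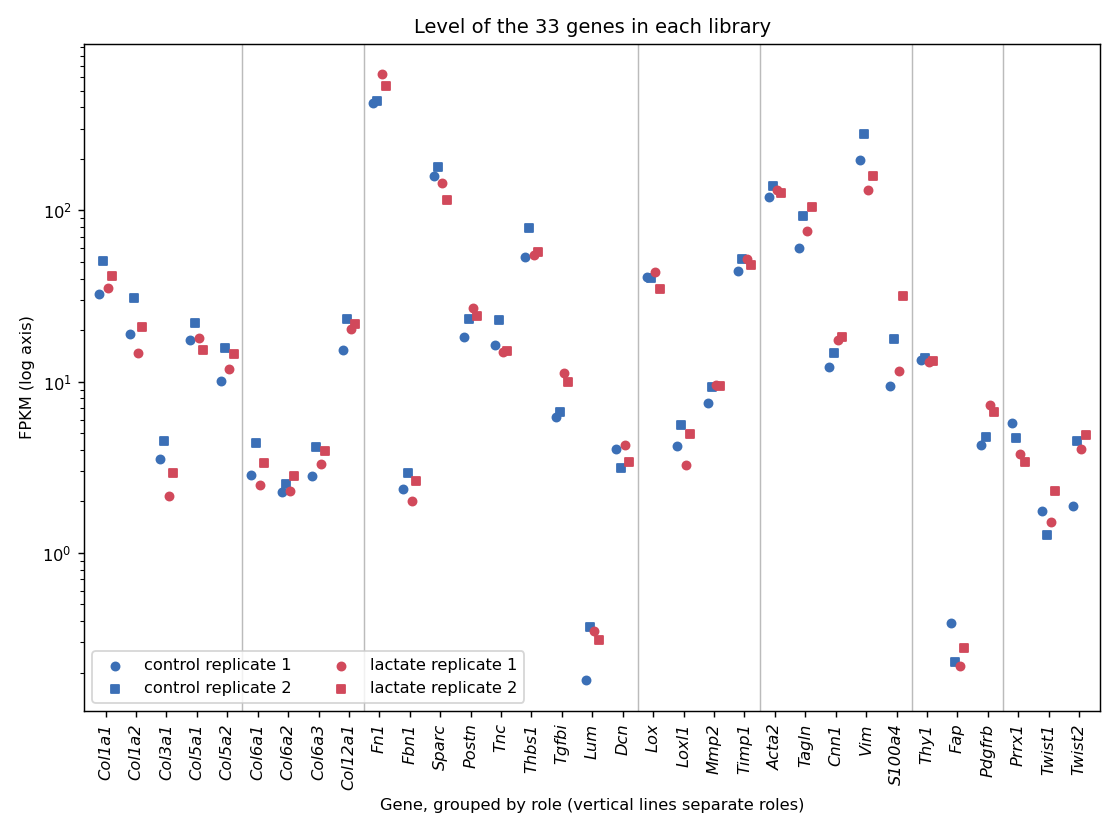
Level of each of the 33 genes in each library, as FPKM on a log axis, grouped by role, with 2 control and 2 lactate libraries. Fn1, Vim, Sparc and Acta2 lie over 100 FPKM, and Fap and Lum lie under 1.

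None of the 32 tested genes was called between lactate and control past 2-fold at an adjusted p under 0.05 (quasi-likelihood test of edgeR, Benjamini-Hochberg adjustment over all genes). Of all genes tested, 0.9% were called, 0.552% higher and 0.348% lower. None had an adjusted p-value under 0.05 at any size of change either, against 0.991% of all genes. At an unadjusted p under 0.05 stood 7 of 32 (21.9%), 2 with higher and 5 with lower values in lactate, beside 23.1% of all genes tested (11.7% higher and 11.4% lower). DESeq2 put 2 genes, Col3a1 and Vim, at an adjusted p under 0.05, beside 2.57% of all 32923 genes in that fit. It kept low-count genes that edgeR left out, and also called none of the list over 2-fold. The edgeR fitted values were higher in lactate for 13 genes and lower for 19. Their median log2 fold change was -0.051 (range -0.90 to 0.63) beside 0.010 over all genes. That median became 0.013 with library totals in place of TMM factors, 0.047 on the log2(FPKM + 1) scale with limma, and 0.088 without control replicate 2. The median of all genes was then 0.077, 0.050 and 0.025. The interquartile range was 0.45 for the list and 0.56 for all genes.

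On the CPM scale, on which overlap is given for single genes, the libraries overlapped between the groups in 21 of 32. Both lactate libraries were above both control libraries for 4 genes (Fn1, Tgfbi, Pdgfrb and Twist2), which is 12.5% of the list where all genes gave 27%. They were below for 7 genes (Col3a1, Col5a1, Fbn1, Sparc, Tnc, Vim and Prrx1), which is 21.9% where all genes gave 25.9%. The margin was small for Twist2, at 2.31 CPM in lactate replicate 1 against 2.27 in control replicate 2. In FPKM the groups overlapped for Twist2, Col5a1 and Fbn1. On that scale they separated for Cnn1, Postn and Mmp2, with lactate above, and for Thy1, with lactate below. The precision sets what could be seen. The 95% confidence interval of the fold change included 0 on the log2 scale for 25 genes and stayed within 2-fold in either direction for 24, so that for those a change over 2-fold lay outside the interval. For 8 genes the interval reached past 2-fold.

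**Figure D2:**
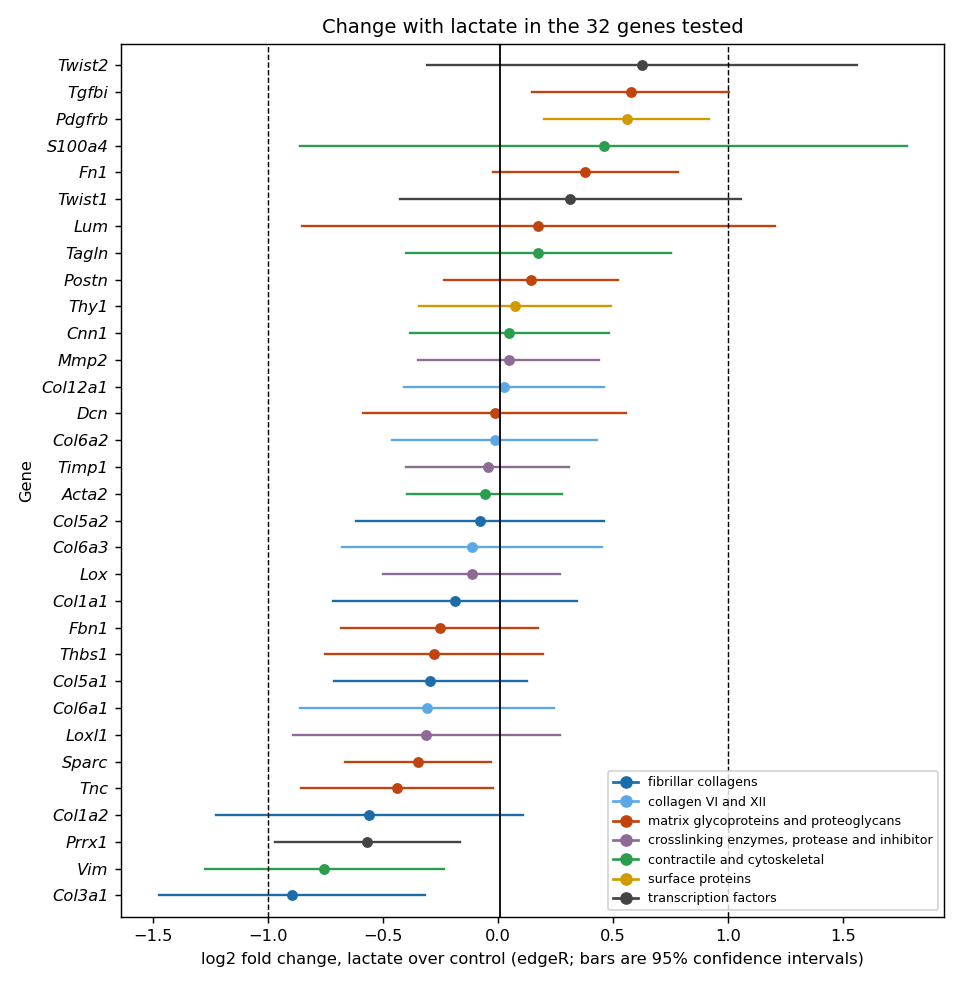
Log2 fold change of lactate over control for the 32 tested genes, with 95% confidence intervals from edgeR, coloured by role. The intervals of 7 genes leave 0 out, Col3a1 at -0.90 is the lowest value and Twist2 at 0.63, with a wide interval, is the highest.

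Fibrillar collagens were represented by the chains of collagens I, III and V. Col3a1 (ENSMUSG00000026043.18, chr1:45311538-45349706 on GRCm38), the only chain of type III collagen, had the lowest log2 fold change of the list. Its values were 15.3 and 19.6 CPM in control and 7.69 and 11 CPM in lactate, where CPM are counts scaled to the TMM library size, or 17.4 ± 3.03 in control and 9.35 ± 2.34 in lactate (mean ± SD, n = 2 libraries each). Both lactate libraries were below both control libraries, with a log2 fold change of -0.90 (SE 0.24, 95% interval -1.48 to -0.32, adjusted p = 0.105, edgeR). Without lactate replicate 2, which leaves 1 lactate library, the log2 fold change of Col3a1 was -1.18 in edgeR. DESeq2 on all 4 libraries gave -0.92 (adjusted p = 0.040). Col1a1 and Col1a2 encode the chains that join in type I collagen, the main fibre of connective tissue. Col1a1 had 194 and 294 CPM in control and 199 and 229.8 CPM in lactate (log2 fold change -0.19, SE 0.22, adjusted p = 0.668), and control replicate 2 was above all the others. Col1a2 had 99.0 and 163 CPM in control and 73.8 and 104 CPM in lactate (log2 fold change -0.56, SE 0.28, adjusted p = 0.284), with the groups overlapping at their edges. Without lactate replicate 2, Col1a2 had a log2 fold change of -0.83 (edgeR).

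Collagen V chains start collagen I fibrils and limit their width. Col5a1 had 76.7 and 102 CPM in control and 68.9 and 76.6 CPM in lactate (log2 fold change -0.29, SE 0.17, adjusted p = 0.364), both lactate values being below both control values by a small margin. Col5a2 had 67.2 and 102 CPM in control and 72.6 and 87.7 CPM in lactate (log2 fold change -0.078, SE 0.22, adjusted p = 0.877), and the groups overlapped. All 5 fibrillar collagen genes had a negative fitted value, with a median of -0.29, and 1 of 5 had an unadjusted p under 0.05.

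Reads of chains that join in a collagen trimer were also set against each other within each library, a description added with the values known. Reads of Col1a1 per read of Col1a2 were 1.96 and 1.80 in control and 2.69 and 2.21 in lactate. Both lactate libraries therefore lay above both control libraries in this ratio. With 2 libraries a group, the smallest two-sided p that an exact permutation test allows is 0.333, so no test was made. Per length, the FPKM of Col1a1 over that of Col1a2 was 1.71 and 1.63 in control and 2.38 and 1.97 in lactate. Reads of Col5a1 per read of Col5a2 were 1.14 and 0.997 in control and 0.948 and 0.874 in lactate. In reads, both lactate libraries lay below both control libraries here. The FPKM ratio was 1.73 and 1.39 in control and 1.54 and 1.05 in lactate, so that the groups overlapped on that scale. In collagen VI, reads of Col6a1 per read of Col6a2 were 1.32 and 1.63 in control and 1.14 and 1.27 in lactate. Both lactate libraries lay below both control libraries in this ratio of reads. Reads of Col6a3 per read of Col6a2 were 1.97 and 2.73 in control and 2.25 and 2.18 in lactate, and overlapped. Which chain was the numerator was a free choice, so the directions of different ratios are not compared.

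The stretches just upstream of Col3a1 and within the Vim promoter are shown because these genes had the lowest log2 fold changes of the list, -0.90 and -0.75. Both are from RefSeq on GRCm38.p6, plus strand, 5′ to 3′, with the motif TATAAA in capitals. The Col3a1 stretch is chr1:45311418-45311537 and the Vim stretch chr2:13574267-13574296.
Col3a1: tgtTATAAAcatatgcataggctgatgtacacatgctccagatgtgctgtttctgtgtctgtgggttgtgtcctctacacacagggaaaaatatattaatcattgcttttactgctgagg
Vim: tcctaacagtgtTATAAAagcagcgccctt
Promoter entries, each 250 bases before to 50 after a start site, were held for 19 of the 33 genes. TATAAA, searched on both strands, was in 7 of their 22 promoters and in 12.4% of all 32851 promoters. By gene it was in 6 of 19, Col3a1, Postn, S100a4, Tnc, Twist1 and Vim. Tnc has overlapping promoter entries that hold the same site, so the count by promoter includes that site more than once. CCAAT, also on both strands, was in 6 of 22 and in 33.8% of all promoters, and TGANTCA in 1 of 22 and in 6.75%. The CArG box was in none of the 22 and in 1.47% of all promoters. A match is a run of letters and says nothing of binding.

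Collagens VI and XII bind to the surface of fibrils or link them to cells. The 3 chains of collagen VI were low in reads. Col6a1 had 11.3 and 15.7 CPM in control and 9.74 and 12.1 CPM in lactate (log2 fold change -0.31, SE 0.23, adjusted p = 0.469). Col6a2 had 8.62 and 9.64 CPM in control and 8.55 and 9.53 in lactate (log2 fold change -0.014, SE 0.18, adjusted p = 0.974), and Col6a3 had 16.9 and 26.3 CPM in control and 19.3 and 20.7 in lactate (log2 fold change -0.11, SE 0.23, adjusted p = 0.821). In all 3 the groups overlapped and control replicate 2 was the highest library, for Col6a2 by a small margin. Col12a1, a fibril-associated collagen, had 127 and 174 CPM in control and 156 and 150.3 CPM in lactate (log2 fold change 0.025, SE 0.18, adjusted p = 0.952), control replicate 1 being the lowest. The sign of Col6a2, Col6a3 and Col12a1 changed with the processing, and none of the 4 genes had an unadjusted p under 0.05.

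The matrix glycoproteins held both the most abundant gene of the list and 3 of the 7 with an unadjusted p under 0.05. Fn1 (ENSMUSG00000026193.15, chr1:71585520-71653200), whose fibronectin dimers are stretched by cells into fibres, had 2389.6 and 2348 CPM in control and 3322 and 2847 CPM in lactate. Both lactate libraries were above both control libraries, with a log2 fold change of 0.38 (SE 0.17, 95% interval -0.020 to 0.78, adjusted p = 0.236, edgeR). Tgfbi (chr13:56609523-56639562), a secreted adaptor between collagen and integrins, had 16.7 and 16.7 CPM in control and 27.8 and 22 CPM in lactate (log2 fold change 0.58, SE 0.18, adjusted p = 0.133). The lactate libraries were again above, in CPM 16.7 ± 0.0402 in control and 24.9 ± 4.11 in lactate (mean ± SD, n = 2 libraries each). Sparc (chr11:55394500-55423183), which binds collagen and shapes its deposition, had 334 and 350.2 CPM in control and 276 and 262 CPM in lactate (log2 fold change -0.35, SE 0.13, adjusted p = 0.187). Tnc (chr4:63959785-64047015), the gene of tenascin-C, had 106 and 143 CPM in control and 93.0 and 91.1 CPM in lactate (log2 fold change -0.44, SE 0.17, adjusted p = 0.199). Sparc and Tnc were below control in both lactate libraries, for Tnc by a small margin against control replicate 1.

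Fbn1, the backbone of elastic microfibrils, had 22.1 and 26.2 CPM in control and 18.5 and 22.05 CPM in lactate (log2 fold change -0.25, SE 0.18, adjusted p = 0.440), and an annotated gene on the opposite strand, Gm9913, covers 2442 of its exonic bases. Thbs1, a secreted protein that binds matrix and activates latent TGF-beta, had 297 and 427 CPM in control and 303 and 295 in lactate (log2 fold change -0.28, SE 0.20, adjusted p = 0.448). Postn, the gene of periostin, had 49.8 and 62.5 CPM in control and 64.2 and 60.1 in lactate (log2 fold change 0.15, SE 0.16, adjusted p = 0.632). Thbs1 was highest in control replicate 2 and Postn lowest in control replicate 1, and the groups overlapped for both. The small proteoglycans were at the low end, Dcn with 89 to 109 reads and Lum with 7 to 14 reads per library, and neither had an unadjusted p under 0.05.

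Lox and Loxl1 oxidize lysines in collagen and elastin so that the fibres crosslink. Lox had 166 and 162 CPM in control and 169.7 and 133 CPM in lactate (log2 fold change -0.11, SE 0.16, adjusted p = 0.722), and Loxl1 had 13.2 and 16.3 CPM in control and 9.63 and 14.1 in lactate (log2 fold change -0.31, SE 0.24, adjusted p = 0.486). Mmp2, a gelatinase that cuts denatured and basement membrane collagen, had 20.7 and 24.5 CPM in control and 22.6 and 24.1 in lactate (log2 fold change 0.047, SE 0.16, adjusted p = 0.900). Timp1, a secreted inhibitor of such proteases, had 28.2 and 30.8 CPM in control and 29.8 and 27.4 in lactate (log2 fold change -0.044, SE 0.15, adjusted p = 0.895). The groups overlapped for these 4 genes. Their intervals nonetheless bound the change, that of Lox running from -0.50 to 0.27 and that of Timp1 from -0.40 to 0.31 on the log2 scale.

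Of the 5 contractile and cytoskeletal genes, Vim had an unadjusted p under 0.05 and the others did not. Vim (ENSMUSG00000026728.9, chr2:13573927-13582826) encodes vimentin, the intermediate filament of mesenchymal cells, which is made outside fibroblasts too. It had 249.7 and 339.6 CPM in control and 149 and 199.97 CPM in lactate, or 295 ± 63.6 in control and 175 ± 35.8 in lactate (mean ± SD, n = 2 libraries each). Both lactate libraries were below both control libraries, with a log2 fold change of -0.75 (SE 0.21, 95% interval -1.27 to -0.23, adjusted p = 0.118, edgeR). DESeq2 gave -0.77 (adjusted p = 0.022), and without lactate replicate 2 edgeR gave -0.98, neither past 2-fold. Acta2, the smooth muscle actin of contractile fibroblasts, had 202 and 231 CPM in control and 215 and 202 CPM in lactate (log2 fold change -0.058, SE 0.14, adjusted p = 0.851). Cnn1, a calponin that binds actin, had 16.7 and 19.6 CPM in control and 17.2 and 20.4 in lactate (log2 fold change 0.050, SE 0.18, adjusted p = 0.905), and Tagln, another actin-binding protein, had 38.0 and 56.0 CPM in control and 44.9 and 61.3 in lactate (log2 fold change 0.18, SE 0.24, adjusted p = 0.715). The groups overlapped for these 3 genes, and in both groups replicate 2 was the higher library for Tagln and Cnn1. S100a4, a small calcium-binding protein of fibroblasts, had 15 and 31 reads in control and 17 and 50 in lactate.

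Of the surface proteins, 2 of 3 were tested. Pdgfrb (ENSMUSG00000024620.11), the receptor through which PDGF drives growth of mesenchymal cells, had 23.3 and 24.9 CPM in control and 37.6 and 33.5 CPM in lactate, or 24.1 ± 1.15 in control and 35.6 ± 2.90 in lactate (mean ± SD, n = 2 libraries each). Both lactate libraries were above both control libraries, with a log2 fold change of 0.56 (SE 0.15, 95% interval 0.20 to 0.92, adjusted p = 0.105, edgeR), the smallest adjusted p of the list. Thy1, a glycoprotein on fibroblasts and other cells, had 14.1 and 15.9 CPM in control and 16.8 and 14.8 in lactate (log2 fold change 0.075, SE 0.17, adjusted p = 0.843), with the groups overlapping and the sign depending on the processing.

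Prrx1 (chr1:163245119-163313710), a homeodomain factor of limb and craniofacial mesenchyme, had 16.5 and 15.6 CPM in control and 11.3 and 10.3 CPM in lactate (log2 fold change -0.57, SE 0.17, adjusted p = 0.124). The libraries of a group were close to each other, in CPM 16.0 ± 0.622 in control and 10.8 ± 0.676 in lactate (mean ± SD, n = 2 libraries each), and those of lactate lay below. The basic helix-loop-helix factors had few reads, Twist1 32 to 57 and Twist2 18 to 56 per library. Twist2 had the highest fitted value of the list at a log2 fold change of 0.63 (SE 0.39, adjusted p = 0.382, edgeR), with 18 and 43 reads in control and 43 and 56 in lactate. An antisense gene, Gm29100, covers 1477 exonic bases of Twist2.

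The control libraries differed in a shared direction in most of these genes, while over the whole list the lactate libraries were near the share of all genes. Control replicate 2 was above control replicate 1 in 26 of 32 (81.2%, against 51.7% of all genes tested), with a median log2 difference of 0.32 for the list and 0.014 for all genes. All 9 collagen genes shared that direction, at 0.16 to 0.72. Lactate replicate 2 was above lactate replicate 1 in 17 of 32 (53.1%, against 51.1%), with a median of 0.097, and in 8 of the 9 collagen genes. Replicate 2 was above replicate 1 in both groups for 16 of 32 (50%, against 38.9%). Differences over 2-fold were seen for 1 gene in each group, Twist2 in control (1.05, beside 2.84% of all genes) and S100a4 in lactate (1.38, beside 3.3%). The single control libraries stood further apart than the group means in 21 of the 32 genes. Single libraries vary more than means of 2, and the count was not made over all genes, so nothing is concluded from it. The mitochondrial share moved with the same split, at 5.48% and 2.43% in control replicates 1 and 2, and leaving mitochondrial genes out of the library sizes gave medians of 0.30 in control and 0.084 in lactate. The part of the mitochondrial share in these differences was not tested.

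**Figure D3:**
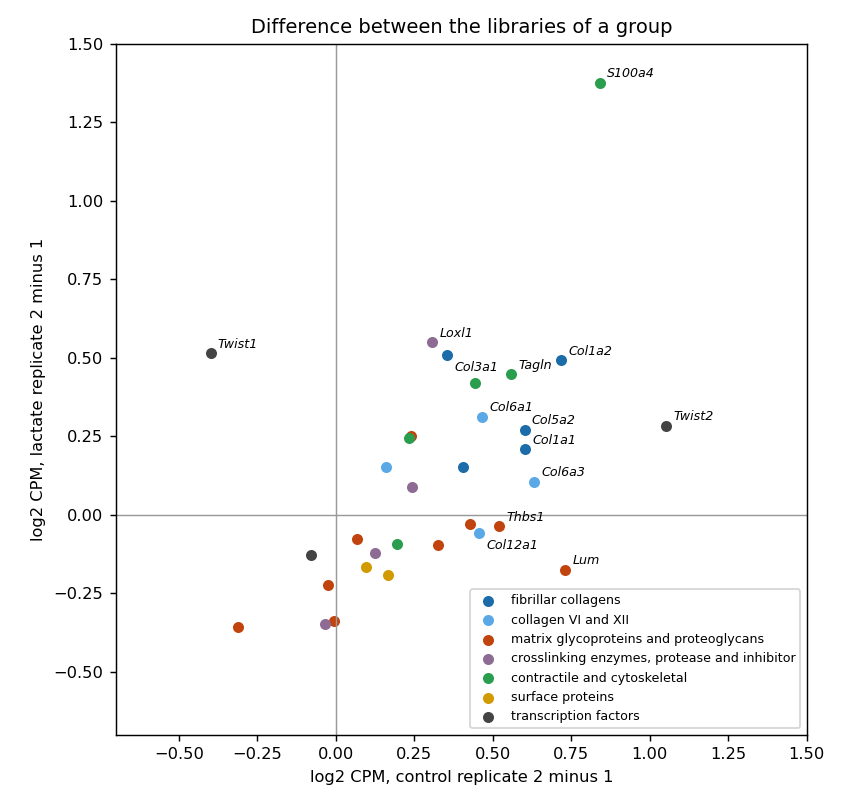
Log2 CPM difference of replicate 2 minus replicate 1 in lactate against the same in control, 1 point for each tested gene, coloured by role. In control 26 of 32 points lie to the right of 0, and all 9 collagens are among them.

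The libraries were also set against each other by number, as a description. Lactate replicate 1 was above control replicate 1 in 20 of 32 genes (50.1% of all genes tested), and lactate replicate 2 was above control replicate 2 in 8 of 32 (51.4% of all genes). The labels do not say that equal numbers mark a shared culture or day.

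Summed over the 33 genes, the level was 1313 and 1586 FPKM in control and 1498 and 1458 in lactate, or 1449 ± 193 in control and 1478 ± 28.3 in lactate (mean ± SD, n = 2). The log2 ratio of 0.029 was smaller than the SD between replicates on that scale, 0.14. Without Fn1 the ratio was -0.18, and without Fn1, Vim and Sparc it was 0.024. In counts per library total the log2 ratio of the full sum was 0.16, with both lactate libraries above both control libraries, and in CPM after TMM it was 0.093. The sum without Fn1, Vim and Sparc had the opposite sign on these scales, at -0.092 and -0.15, so its direction depended on the scale. By role, the fibrillar collagens summed to 82.3 and 123 FPKM in control and 81.9 and 95.1 in lactate and the glycoproteins and proteoglycans to 683 and 750.0 FPKM in control and 883 and 763 in lactate. The contractile and cytoskeletal genes summed to 399.5 and 542 FPKM in control and 367 and 441 in lactate. The lactate libraries were above both control libraries for the glycoproteins, where Fn1 makes up most of the sum, and the groups overlapped for the fibrillar collagens.

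Other lists of genes that bear on fibroblasts or on matrix were read beside the 33. Of 26 further fibroblast matrix genes 24 were tested, and 5 had higher and 19 lower fitted values in lactate, with a median of -0.26. An unadjusted p under 0.05 was found for 8 of them, 3 higher and 5 lower. The 3 with the smallest p included Col15a1, with 6 and 4 reads in control and 17 and 19 in lactate, and Eln, the gene of elastin, with 6 and 9 against 19 and 30. Col8a1, a short-chain collagen, had 8.50 and 9.54 CPM in control and 5.06 and 5.78 CPM in lactate (log2 fold change -0.73, SE 0.20, adjusted p = 0.105). A list for collagen folding and processing held 18 genes, not all of them enzymes that act on collagen, since Leprot and Sec23a were included. It had a median of -0.21, with 14 lower and 3 at an unadjusted p under 0.05. Those 3 were Pcolce, which speeds the removal of the procollagen C-propeptide, with 105 and 108 CPM in control and 72.1 and 81.5 CPM in lactate (log2 fold change -0.47, SE 0.13, adjusted p = 0.115), and the prolyl hydroxylase subunits P4ha1 and P4ha2, at log2 fold changes of -0.42 and -0.41.

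The other surface proteins and regulators had a median of 0.12 over 17 of 23 genes, and 4 had an unadjusted p under 0.05. Pdgfra, which mesenchyme and primitive endoderm both express, had 3.12 and 3.21 CPM in control and 7.26 and 5.37 CPM in lactate (log2 fold change 0.99, SE 0.24, adjusted p = 0.0879). Both lactate libraries of Pdgfra were above both control libraries, as they were for Pdgfrb. The transcription factor Zeb2 had a log2 fold change of 0.63, and Osr2 had 12 and 13 reads in control and 4 and 3 in lactate. Of 12 genes of actin filaments and serum response factor targets, 10 had lower and 2 higher values, with a median of -0.28 and 5 at an unadjusted p under 0.05. Cnn2 had 92.4 and 93.5 CPM in control and 59.2 and 53.2 CPM in lactate (log2 fold change -0.73, SE 0.13, adjusted p = 0.0571), and Actn1, an actin crosslinker, had 344 and 359.6 CPM in control and 227 and 217 CPM in lactate (log2 fold change -0.67, SE 0.13, adjusted p = 0.0635). Vcl, the gene of vinculin, had a log2 fold change of -0.45. The 13 TGF-beta and YAP targets had a median of 0.0033, with Smad7 alone at an unadjusted p under 0.05, at 0.43.

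Lists of cell types that share Fn1, Vim or Sparc with fibroblasts were read in the same way. Of 16 primitive endoderm and basement membrane genes 14 were tested, 9 higher and 5 lower, with a median of 0.28 and 5 at an unadjusted p under 0.05. Lama1, a laminin chain, had 116 and 137 CPM in control and 198 and 212 CPM in lactate (log2 fold change 0.69, SE 0.15, adjusted p = 0.0684), P3h2 had 7 reads in each control library and 19 in each lactate library, and Nid1 had a log2 fold change of -0.43. The defining factors were low, Gata6 at 0.35 to 0.62 FPKM, Gata4 at 0.73 to 1.61 and Sox17 at 0.11 to 0.48. Of the 14 pluripotency genes 8 were higher and 6 lower, with a median of 0.050. An unadjusted p under 0.05 was found for 7, of which 5 were higher and 2 lower. Sox2, Zfp42 and Tbx3 had the smallest p, at log2 fold changes of 0.56, 0.52 and 0.43. Of 9 mesoderm and primed genes 5 were tested, with a median of 0.37, and Otx2 was at 0.68. No gene of these 8 lists had an adjusted p under 0.05 in edgeR. DESeq2 put 4 of 130 there (3.08%, beside 2.57% of 32923 genes) and called none. Its base includes low-count genes that edgeR left out, so these shares are not on the base of those from edgeR. A fit with the replicate number as a block called 6. The part of these cells in the values of Fn1, Vim and Sparc was not tested.

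**Figure D4:**
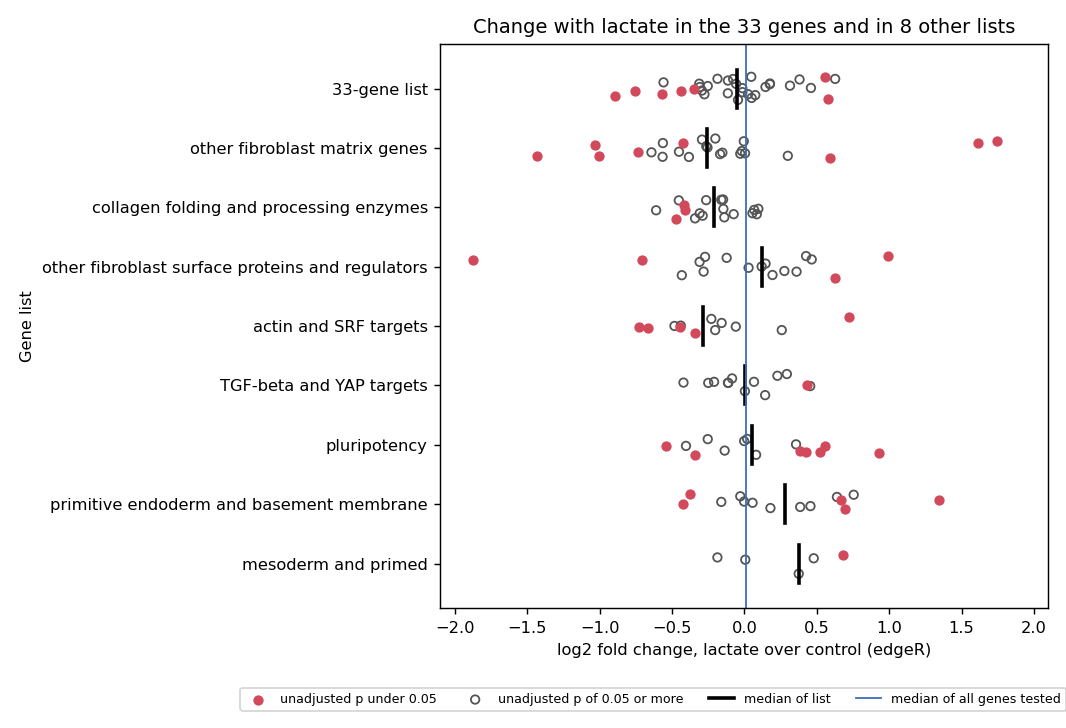
Log2 fold change of lactate over control for each tested gene of the 33 and of 8 other lists, filled where the unadjusted p was under 0.05, with a black bar at the median of each list and a blue line at the median of all genes. Medians run from -0.28 for actin and serum response factor targets to 0.37 for mesoderm and primed genes, the latter over 5 genes.

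The counted reads and the RSEM estimates of the authors differed by gene. Raw counts were 104% to 125% of the expected counts for most of the list, but 54.9% for Tagln, 53.8% for S100a4 and 62.0% for Twist2, and 151% for Sparc. Tagln, S100a4 and Twist2 share exonic bases with annotated neighbours. So do Col3a1, Col5a1, Fn1, Fbn1, Tnc, Thbs1 and Lox, which lie in the range of 104% to 125%, while Sparc shares none. The part of overlap in these percentages was not tested. Pcsk7 and Gm48529, on the opposite strand, cover 1349 bases of Tagln and Gm42674, on the same strand, 302 bases of S100a4. The sources used here do not state whether strand was used in counting, so reads of overlapping genes cannot be told apart and these values are uncertain.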

How the data were processed

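The 2 control and 2 lactate libraries were made from total RNA with a TruSeq kit. Per the submitters' processing notes, reads were trimmed with cutadapt 1.16 and mapped to mm10 with STAR. The authors deposited raw read counts of 55335 genes and 1153 transposable element families. They also deposited RSEM output per library, namely expected counts, TPM and FPKM. Gene symbols come from these tables. Positions and overlaps are from GENCODE M21 on GRCm38. No column of per-sample values was left without a sample.

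The tests were run with edgeR 4.0.16 under R 4.3.3. Transposable element counts were left out of library sizes and tests. Genes passing filterByExpr (18661) were TMM-normalized and tested by the quasi-likelihood test in its legacy form, without a replicate term, with Benjamini-Hochberg adjustment over all genes tested. DESeq2 1.42.0, limma 3.58.1 on log2(FPKM + 1) and log2(FPKM + 0.1), other scalings and filters, rounded expected counts and fits without each library served as alternatives. A fit without 1 library leaves 1 library in that group, so its spread comes from the other group alone. The tests were tried on simulated counts. The standard error is the log2 fold change over the square root of F, and SDs are over 2 libraries. The common biological coefficient of variation was 15.9%. All 33 genes are accounted for, with values by library for those of at least 100 mean counts. Of the other lists, up to 3 genes with the smallest unadjusted p under 0.05 are named, and Pou5f1, Nanog, Gata4, Gata6 and Sox17 as cell type markers. The genes and lists were chosen with earlier results of these data known. No source says that the libraries came from separate cultures, so p-values measure the spread between these libraries, which may be technical.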

Additional observations from a re-analysis of the deposited data

How the results depend on the processing

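With 2 libraries a group, small differences could not be seen. The 4 genes with the largest SE (S100a4, Lum, Twist2 and Twist1) all had under 100 mean counts. RLE factors, a minimum of 10 counts in every library and edgeR without its legacy form changed none of the counts of genes past a threshold by over 1.5 times. The number at an adjusted p under 0.05 was 2 with DESeq2 (2.57% of 32923 genes) and 2 with no filter on low counts (5% of 32923 genes), both times Col3a1 and Vim. The number lower at an unadjusted p under 0.05 was 3 with upper-quartile factors, 3 with library totals and 1 with limma on FPKM in each of 3 forms. The median log2 fold change was 0.013 with library totals, which put the median of all genes at 0.077, and 0.047 with limma on log2(FPKM + 1), 0.052 on log2(FPKM + 0.1) and 0.047 on log2(FPKM + 1) without a filter. The cause was not tested. The summed FPKM had a log2 ratio of -0.18 without Fn1.

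Without each library in turn, the median ran from -0.17 to 0.088, the number at an adjusted p under 0.05 from 0 to 3, the number called lower from 0 to 1, and none was called higher. The numbers at an unadjusted p under 0.05 ran from 0 to 2 higher and from 3 to 6 lower, and the summed FPKM ratio from -0.10 to 0.17, the highest without control replicate 2. The count of 3 (Col3a1, Vim and Col1a2) and the call of Col3a1 came without lactate replicate 2, where 7.14% of all genes had an adjusted p under 0.05.

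With the replicate number as a block, 16 genes had an adjusted p under 0.05, none over 2-fold, and 5 higher and 12 lower an unadjusted p under 0.05. In that fit 44.5% of all genes tested had an adjusted and 51.2% an unadjusted p under 0.05. Of the 8 other lists, 65 of 117 genes had an adjusted p under 0.05 there (55.6%) and 6 were called past 2-fold (Col15a1, Eln, Prelp, Mfap2, Osr2 and P3h2, 5.13%, beside 6.19% of all genes). Prelp and Mfap2 are named here after their values were seen. The differences between replicates of control and of lactate correlated across 18661 genes at r = 0.56 (rho = 0.60) and across the 32 genes at 0.48 (0.52), over genes that share libraries. With 2 pairs and no label, this does not show that the numbers pair the cultures.

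Single genes changed sign under an alternative, all of them near 0: Col5a2 (limma 0.047 and 0.052), Col6a2 (limma 0.064 and 0.085, upper-quartile factors 0.018, library totals 0.052, expected counts 0.014), Col6a3 (limma 0.050 and 0.067), Col12a1 (no filter on low counts -0.017, expected counts -0.00027), Timp1 (limma 0.060 and 0.061, library totals 0.020), Acta2 (limma 0.0033 and 0.0034, library totals 0.0061), Thy1 (limma -0.049 and -0.052). Without each library in turn, the sign changed for Col1a1 (-0.47 to 0.14), Col5a2 (-0.37 to 0.25), Col6a2 (-0.11 to 0.064), Col6a3 (-0.41 to 0.23), Col12a1 (-0.20 to 0.27), Postn (-0.026 to 0.31), Thbs1 (-0.53 to 0.0024), Lox (-0.33 to 0.045), Mmp2 (-0.087 to 0.17), Timp1 (-0.13 to 0.014), Acta2 (-0.17 to 0.037), Tagln (-0.095 to 0.48), Cnn1 (-0.083 to 0.17), Thy1 (-0.050 to 0.16), as log2 fold changes. None of these genes had an unadjusted p under 0.05 in the fit without a block.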
